A study of Mus musculus with 12 samples.

Results

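The Slc25 genes encode the mitochondrial carrier family. The 38 members described here are the protein-coding genes of the deposited count table whose symbol begins with Slc25a and a digit, leaving out Slc25a20, of 13715 genes in all. RNA-seq was done on bone marrow-derived macrophages of mice, obtained by 7 days of culture in M-CSF (40 ng/ml), a cytokine on which macrophages depend. KO macrophages came from LysMCre Stk11 fl/fl mice, which express Cre recombinase in myeloid cells under control of the lysozyme M gene (Lyz2) and carry floxed alleles of Stk11, the gene of the kinase LKB1. They were set against macrophages of WT mice. Cells of each genotype received IL-4 at 20 ng/ml for 24 h or were left unstimulated (mock), which gave the 4 groups KO IL-4, KO mock, WT IL-4 and WT mock with 3 libraries each. No group carried the Cre insertion without the floxed alleles, so loss of Stk11 and the Cre insertion cannot be told apart. The study is titled as one of macrophage polarization and mitochondrial metabolism. The labels do not say that the 3 samples of a group came from separate animals, so the spread that the p-values measure may be partly technical.

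Mitochondrial carriers are small proteins of the inner mitochondrial membrane, built from a repeated pair of membrane-spanning helices, that exchange metabolites between cytosol and matrix. They bring ADP, phosphate, pyrimidine nucleotides, cofactors, amino acids, glutathione and iron into the matrix and let ATP, citrate and aspartate out. In macrophages they connect the citric acid cycle and oxidative phosphorylation, on which alternative activation by IL-4 draws, with cytosolic metabolism, and LKB1 acts through AMPK and related kinases on the same energy metabolism. A few members work elsewhere, such as Slc25a17 in peroxisomes and Slc25a46 in the outer mitochondrial membrane.

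The libraries held 30651627 to 39136822 counts. Stk11 stood at 8.31, 5.56 and 9.24 CPM (counts scaled to the same library size for all libraries) in KO IL-4 libraries and 5.34, 3.87 and 8.77 in KO mock, against 42.5, 54.4 and 38.7 in WT IL-4 and 44.9, 46.0 and 37.7 in WT mock, and so was lower in every KO library. Lyz2 divided the KO libraries, since the KO libraries numbered 2 held 43.4 CPM with IL-4 and 43.1 CPM in mock, whereas the other KO libraries held 15362 to 21618 CPM and WT libraries 28471 to 44637 CPM. All 8 macrophage markers were in the table, and the 7 other than Lyz2 summed to 8230 to 8640 CPM in KO IL-4 and 6590 to 6930 CPM in KO mock, against 8240 to 8830 CPM in WT IL-4 and 7090 to 7360 CPM in WT mock. Of the 8, Itgam, Csf1r and Adgre1 were lower in KO mock than in WT mock, at log2 fold changes of -0.79 (SE 0.13), -0.39 (SE 0.07) and -0.44 (SE 0.09), and Cd68 was higher, at 0.21 (SE 0.07). Of 15 neutrophil markers 13 were in the table, while the neutrophil protease genes Elane and Prtn3 were not among the genes analysed here. Their summed level was 589 to 1070 CPM in KO IL-4 and 762 to 1330 CPM in KO mock, against 320 to 449 CPM in WT IL-4 and 420 to 578 CPM in WT mock. Of the 13, 11 were higher in KO mock than in WT mock and 1, Csf3r, was lower, at -0.48 (SE 0.10). With IL-4, 9 were higher in KO and 0 lower. These were 92.3% and 69.2% of the list, against 34.5% and 18.8% of all genes. Ltf was highest in the KO libraries numbered 2, at 227 CPM with IL-4 and 329 in mock, against 62.2 to 191 in the other KO libraries. Of 5 megakaryocyte markers 3 were in the table, summing to 513 to 601 CPM in KO IL-4 and 574 to 646 CPM in KO mock, against 41.1 to 63.7 CPM in WT IL-4 and 39.8 to 57.8 CPM in WT mock, nearly all from the platelet chemokine gene Pf4. Of 9 erythroid markers 2 were in the table and summed to at most 1.40 CPM in any library. The part of these marker differences and of the Lyz2 difference in the values below was not tested, except that the counts of members and of the gene lists were recomputed without both KO libraries numbered 2. In bulk cultures, fewer cells of a type and less RNA per cell cannot be told apart.

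The family spanned a wide range of levels. On the RPKM scale (CPM divided by the deposited gene length in kilobases), the mean level over the 12 libraries ran from 0.0963 for Slc25a47 to 343 for Slc25a5, with a median of 4.93. A level over 10 RPKM was found for 10 members and a level under 1 RPKM for 8. The highest were Slc25a5, the main ADP/ATP carrier of dividing cells, at 343 RPKM, Slc25a39, a glutathione carrier, at 107, Slc25a11, the oxoglutarate/malate carrier, at 77.0, Slc25a4, the ADP/ATP carrier of heart and muscle, at 68.3, and Slc25a1, the citrate carrier, at 48.5 RPKM. These 5 made up 73.7% of the members' summed RPKM, and Slc25a5 alone made up 39.3%. Together the 38 members took 0.238% ± 0.00494 of a library's counts in KO IL-4, 0.229% ± 0.00105 in KO mock, 0.240% ± 0.00884 in WT IL-4 and 0.202% ± 0.00464 in WT mock (mean ± SD, n = 3 each). The WT mock libraries thus had the lowest share, below each of the other 9 libraries, and a sum of this kind follows Slc25a5 most.

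**Figure D1:**
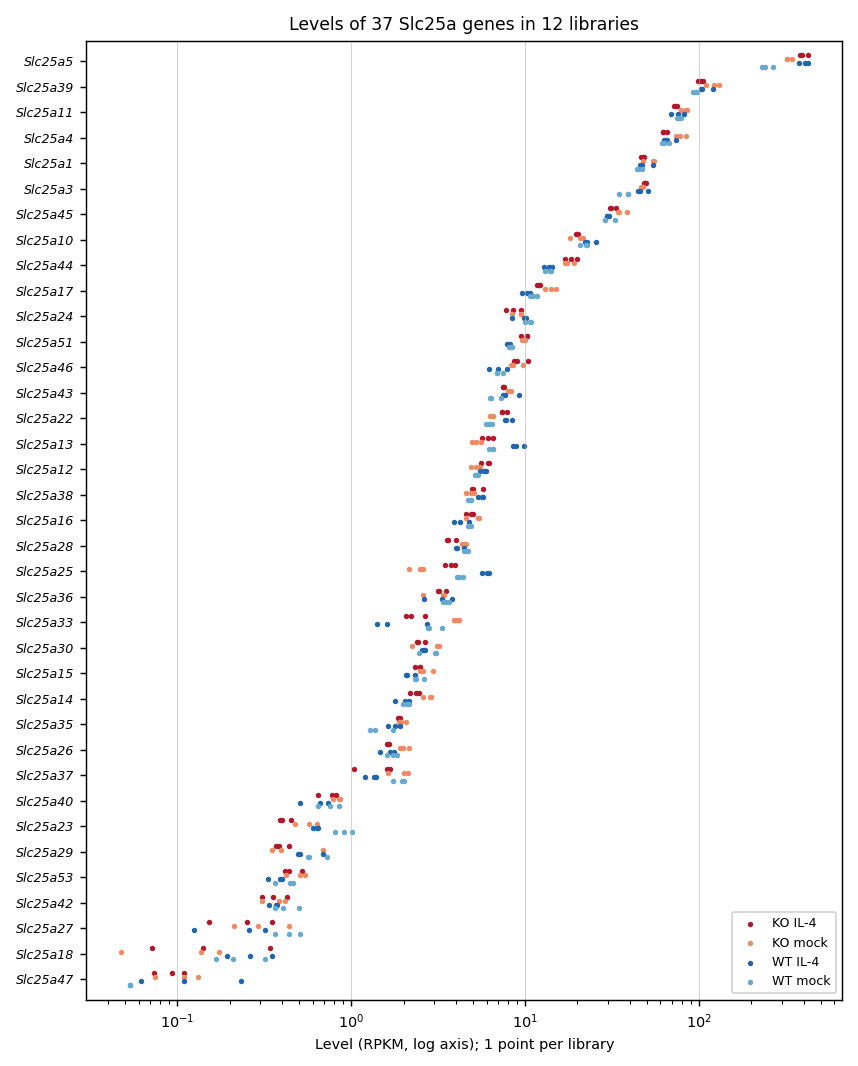
Level of each member reported here in each of the 12 libraries, as RPKM on a log axis, with members ordered by their mean from Slc25a5 at the top to Slc25a47 at the bottom and 1 point per library. The groups of a member lie close together compared with the distance between members, and Slc25a5, Slc25a25, Slc25a23 and Slc25a33 show groups set apart.

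Of the 38 members 22 passed the test in at least 1 of the 4 comparisons of 2 groups and 16 in none. The share of all genes passing in at least 1 comparison was not computed, so the 22 have no background to be set against. A member was called where edgeR's quasi-likelihood test gave an adjusted p under 0.05 over all 13715 genes, and the sizes of rises and falls are given as log2 fold changes. Comparing KO with WT in mock, 14 members rose and 3 fell, which is 44.7% of the members against 34.5% called among all genes (15.7% higher and 18.8% lower). The median log2 fold change of the members was 0.15, against -0.02 over all genes. With IL-4, 4 members were higher in KO and 3 lower, which is 18.4% of the members against 18.8% of all genes (8.57% higher and 10.2% lower), and the medians were 0.00 and -0.01. All 7 were also called in mock in the same direction, and the share of all genes called so in both was not computed. IL-4 against mock in KO gave 3 higher and 7 lower members, 26.3% against 30.3% of all genes (16.0% higher and 14.2% lower), with a median of -0.13 for the members and 0.00 for all genes. IL-4 against mock in WT gave 6 higher and 3 lower members, 23.7% against 26.7% of all genes (13.6% higher and 13.0% lower), with a median of -0.02 for both. Groups that did not overlap were seen for 22 members between KO and WT in mock (47.7% of all genes), for 13 with IL-4 (35.9%), for 18 between IL-4 and mock in KO (47.7%) and for 16 in WT (38.3%).

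A few of these counts moved with the scaling, the pairing or a trend with gene length. With the pairing of same-numbered IL-4 and mock libraries as a block, the IL-4 comparison in KO called 5 higher and 11 lower members, against 38.5% of all genes (20.3% higher and 18.2% lower). In WT the block called 7 higher and 4 lower members, against 33.5% of all genes (16.8% higher and 16.7% lower). With library size alone as the scaling the IL-4 comparison in KO called 5 higher and 2 lower, against 29.2% of all genes (18.3% higher and 10.9% lower), and the median log2 fold change was then 0.06 over all genes and -0.07 over the members. Without both KO libraries numbered 2, the counts were 1 higher and 3 lower for IL-4 in KO (21.5% of all genes called), 2 higher and 2 lower for KO against WT with IL-4 (11.7%), and 12 higher and 2 lower for KO against WT in mock (29.1%). Over the 13715 genes, the log2 fold change of KO against WT in mock fell with gene length at a Spearman rho of -0.294, given as a description across genes, which are not replicates. With a correction for length, 12 members were higher and 3 lower in that comparison.

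**Figure D2:**
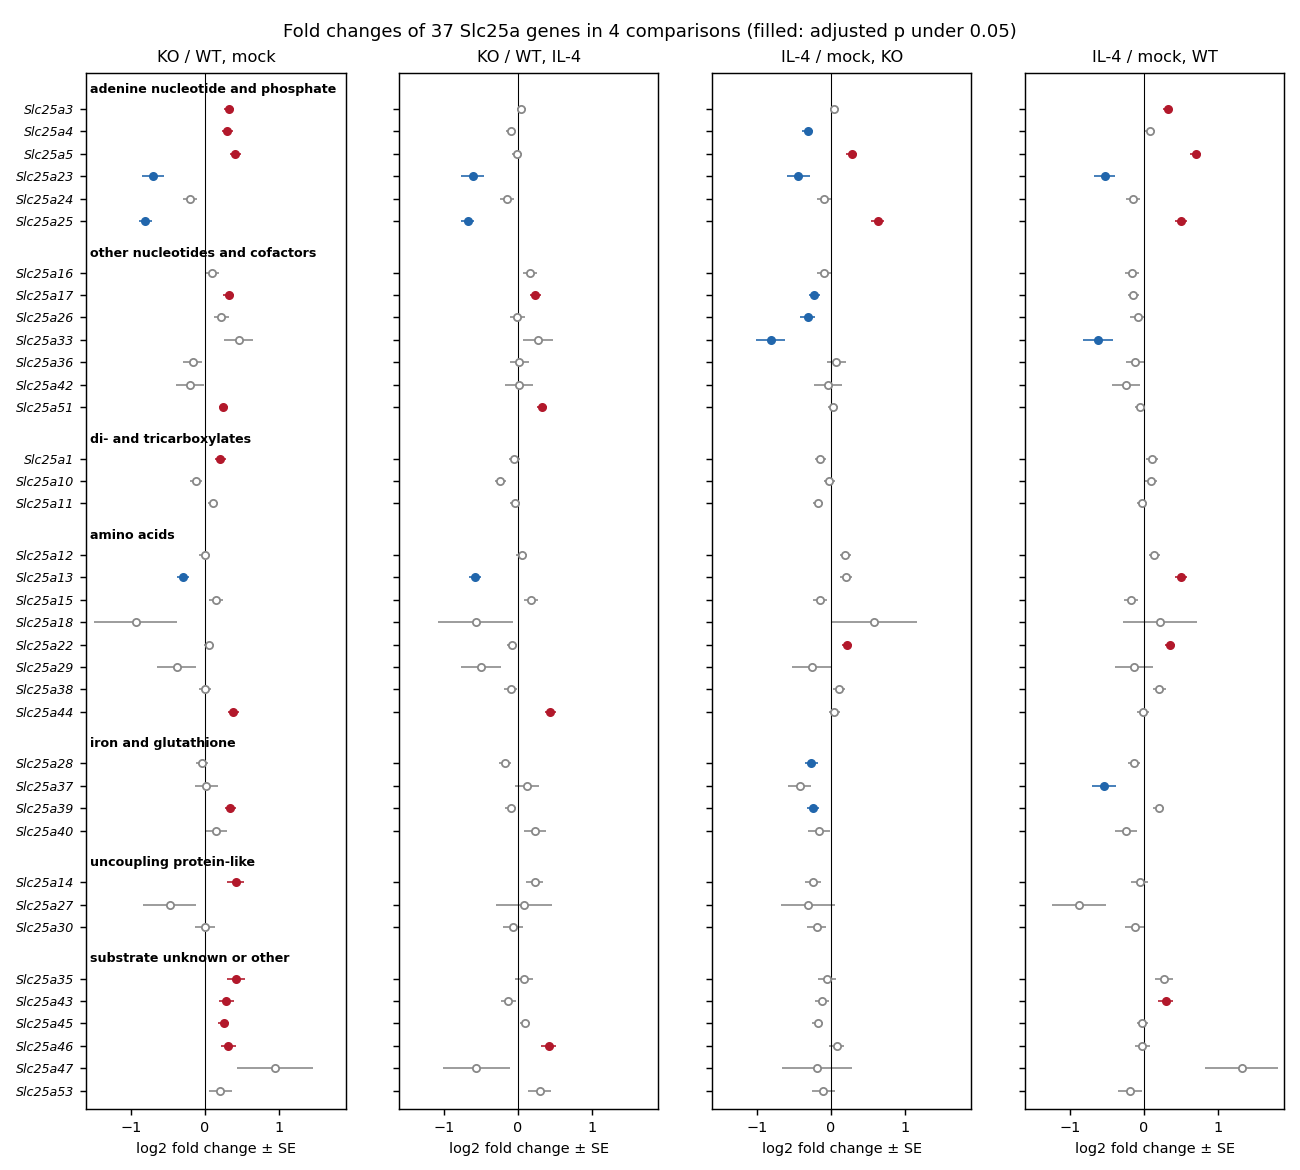
Log2 fold change of each member reported here with its standard error for KO against WT under each treatment and for IL-4 against mock in each genotype, grouped by the substance carried. Filled points have an adjusted p under 0.05 (red higher, blue lower), open points do not, and the first panel holds 13 filled points to the right and 3 to the left of the line at 0.

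The carriers of adenine nucleotides and phosphate held the members with the most calls. Of 6 measured, 3 rose and 2 fell in KO against WT in mock, 2 fell with IL-4, 2 rose and 2 fell with IL-4 in KO, and 3 rose and 1 fell with IL-4 in WT. In that order these are 83.3%, 33.3%, 66.7% and 66.7% of a small group, against 34.5%, 18.8%, 30.3% and 26.7% of all genes. In KO against WT, the members that rose were Slc25a5, Slc25a4 and Slc25a3, ADP/ATP and phosphate carriers that serve ATP synthase, and those that fell were Slc25a25 and Slc25a23, calcium-regulated ATP-Mg/phosphate carriers, which adjust the adenine nucleotide pool of the matrix. Slc25a5 stood at 645, 697 and 624 CPM in the KO IL-4 libraries, 563, 529.6 and 525 in KO mock, 694, 668 and 619 in WT IL-4 and 381, 440.0 and 396 in WT mock. The WT mock libraries were the lowest, KO mock libraries came next without overlap, and both IL-4 groups were highest and overlapped. Slc25a5 (ENSMUSG00000016319.3, chromosome X, 36795651 to 36798807, plus strand, mm10) therefore rose in KO against WT in mock by a log2 fold change of 0.41 (adjusted p = 0.00069, SE 0.07) and did not differ detectably with IL-4, at -0.01 (adjusted p = 0.95, SE 0.07). IL-4 raised it by 0.28 (adjusted p = 0.0082, SE 0.07) in KO and by 0.70 (adjusted p = 3.8e-06, SE 0.07) in WT. Without both KO libraries numbered 2 the call in KO was lost (adjusted p = 0.10). Near-identical processed copies of Slc25a5 and Slc25a3 lie elsewhere in the mouse genome, and the levels of both are uncertain, because how the authors counted reads with several matches is not given in the sources used here.

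Slc25a4 stood at 146, 154 and 147 CPM in the KO IL-4 libraries, 198, 174 and 183 in KO mock, 154, 174 and 148 in WT IL-4 and 148, 158 and 145 in WT mock. KO mock libraries were the highest on average and did not overlap with those of KO IL-4 or WT mock, while KO and WT overlapped with IL-4. Slc25a4 (ENSMUSG00000031633.4, chromosome 8, 46206797 to 46211284, minus strand) rose in KO against WT in mock by 0.30 (adjusted p = 0.0061, SE 0.07) and fell with IL-4 in KO, at a log2 fold change of -0.31 (adjusted p = 0.0053, SE 0.07). In WT the IL-4 difference was 0.08 (adjusted p = 0.45, SE 0.07). The mitochondrial phosphate carrier gene Slc25a3 (ENSMUSG00000061904.12, chromosome 10, 91116574 to 91124059, minus strand) had its lowest values in WT mock. Slc25a3 stood at 267, 269.9 and 273 CPM in the KO IL-4 libraries, 263, 259 and 262 in KO mock, 249, 281 and 254 in WT IL-4 and 217, 217 and 193 in WT mock. It rose in KO against WT in mock by 0.32 (adjusted p = 0.0018, SE 0.06) and with IL-4 in WT by 0.32 (adjusted p = 0.0018, SE 0.06), while the IL-4 difference in KO was 0.05 (adjusted p = 0.62, SE 0.06).

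Slc25a25 and Slc25a23 were the members called in all 4 comparisons of 2 groups, for which no share of all genes was computed. Both were lower in KO under each treatment, and IL-4 moved them in opposite directions. Slc25a25 stood at 29.7, 27.2 and 31.0 CPM in the KO IL-4 libraries, 19.6, 16.9 and 20.2 in KO mock, 47.4, 44.4 and 48.8 in WT IL-4 and 31.9, 32.6 and 34.6 in WT mock. The 4 groups of Slc25a25 (ENSMUSG00000026819.15, chromosome 2, 32414487 to 32451445, minus strand) did not overlap, with KO mock lowest, KO IL-4 next, then WT mock, and WT IL-4 highest. The log2 fold change of KO against WT was -0.80 (adjusted p = 2.0e-05, SE 0.09) in mock, a ratio of 0.572, and -0.68 (adjusted p = 8.4e-05, SE 0.08) with IL-4, a ratio of 0.626. IL-4 raised it by 0.63 (adjusted p = 6.9e-05, SE 0.09) in KO and by 0.50 (adjusted p = 0.00038, SE 0.08) in WT. All 4 calls held in every alternative setting run. Its exons share 4.82% of their length with Naif1 on the opposite strand, and the strandedness of the libraries is not given in the sources used here.

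Slc25a23 stood at 2.11, 2.05 and 2.38 CPM in the KO IL-4 libraries, 3.02, 2.51 and 3.38 in KO mock, 3.42, 3.38 and 3.19 in WT IL-4 and 4.29, 5.32 and 4.82 in WT mock. WT mock libraries were highest and KO IL-4 libraries lowest, and all 4 comparisons separated the groups. Slc25a23 changed by -0.70 (adjusted p = 0.0026, SE 0.15) between KO and WT mock libraries, by -0.61 (adjusted p = 0.012, SE 0.15) between KO and WT IL-4 libraries, and by -0.44 (adjusted p = 0.045, SE 0.16) with IL-4 in KO and -0.53 (adjusted p = 0.014, SE 0.15) in WT. At 2.05 to 5.32 CPM it was among the less abundant members, and only its fall in KO against WT in mock held in every setting. The call with IL-4 was lost without KO IL-4 library 2 (adjusted p = 0.055) and without both KO libraries numbered 2 (0.051). The IL-4 call in WT was lost without WT IL-4 library 3 (adjusted p = 0.052) or WT mock library 2 (0.076). The IL-4 call in KO was lost without any single library except the number 2 libraries of KO mock, WT IL-4 and WT mock (adjusted p up to 0.16), with DESeq2 (0.059), with library size alone (0.070) and with only the 6 libraries compared (0.091). Without both KO libraries numbered 2 this call was lost too, with or without the block. The remaining ATP-Mg/phosphate carrier, Slc25a24, was called in no comparison, and its log2 fold changes ran from -0.21 in KO against WT in mock to -0.09 with IL-4 in KO.

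**Figure D3:**
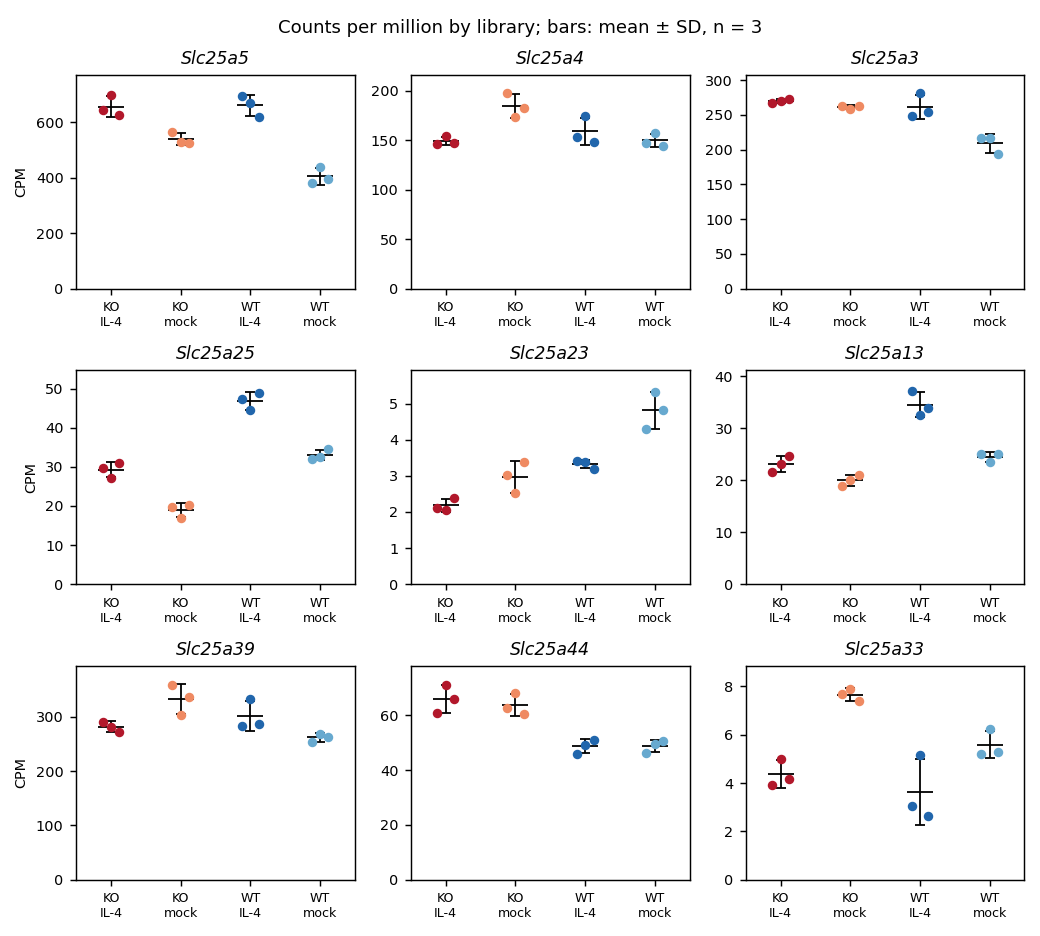
CPM of 9 members in each library, with the mean and SD of each group (n = 3) and the groups ordered KO IL-4, KO mock, WT IL-4 and WT mock, on linear axes that start at 0. Slc25a5 and Slc25a3 are lowest in WT mock, Slc25a25, Slc25a23 and Slc25a13 are lower in KO than in WT under the same treatment, and Slc25a44 is higher in KO under both treatments.

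Upstream sequences were read for the members that these results turn on. RefSeq windows of 250 bases before a transcription start (build GRCm38.p6) were matched for 30 of the 38 members by symbol and searched on both strands. Some members have several starts, so the 30 members had 39 windows. The cyclic AMP response element TGACGTCA, the site of the CREB family of factors, was found in windows of 2 members, Slc25a25 and Slc25a36. These were 5.13% of member windows, against 1.55% of all 32851 windows. The core TGACG, of which the full element holds 1 copy on each strand, was found in 10 members, in 28.2% of member windows and 17.8% of all windows. The NRF1 motif was found in 1 member, Slc25a3, in 2.56% of member windows and 3.74% of all windows. The ERR motif AAGGTCA was found in no member and 4.08% of all windows. The GC box GGGCGGG was found in 14 members, in 41% of member windows and 23.4% of all windows. A match is a description of letters and not a bound site. The stretches below are shown because Slc25a25 and Slc25a36 carry the same element while only Slc25a25 was called, and because Slc25a5 and Slc25a3, which supply ATP synthase, rose with IL-4 in WT. They read 5′ to 3′ on the strand of the gene, capitals mark the matched motifs on either strand, and bases that overlap annotated exons were left out.
Slc25a25: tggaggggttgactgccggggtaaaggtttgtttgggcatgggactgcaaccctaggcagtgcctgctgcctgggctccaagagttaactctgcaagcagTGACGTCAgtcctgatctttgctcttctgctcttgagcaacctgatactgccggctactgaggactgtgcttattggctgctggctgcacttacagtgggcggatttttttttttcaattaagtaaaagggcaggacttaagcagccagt
Slc25a36: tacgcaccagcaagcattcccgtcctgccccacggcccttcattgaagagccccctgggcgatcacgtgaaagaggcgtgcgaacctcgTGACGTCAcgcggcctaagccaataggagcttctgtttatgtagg
Slc25a5: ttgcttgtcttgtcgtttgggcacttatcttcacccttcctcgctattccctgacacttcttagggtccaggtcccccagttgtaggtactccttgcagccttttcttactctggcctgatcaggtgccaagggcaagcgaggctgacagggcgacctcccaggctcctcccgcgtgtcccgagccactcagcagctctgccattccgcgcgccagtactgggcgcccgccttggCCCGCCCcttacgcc
Slc25a3: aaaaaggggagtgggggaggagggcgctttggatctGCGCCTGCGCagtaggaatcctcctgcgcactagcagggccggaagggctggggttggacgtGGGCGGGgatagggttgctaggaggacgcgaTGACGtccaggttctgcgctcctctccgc
The Slc25a25 stretch (chr2:32424067-32424316, minus strand) precedes 1 of 3 RefSeq starts of the gene, lies inside the gene between annotated exons, and has the element 150 bases before that start, while the windows of its other 2 starts hold none. The Slc25a36 stretch (chr9:97111158-97111291, minus strand) has it 161 bases before the start. The Slc25a5 stretch (chrX:36795347-36795596, plus strand) has a GC box 15 bases before the start. The Slc25a3 stretch (chr10:91124060-91124217, minus strand) has the NRF1 motif at 214 bases, a GC box at 152 and the TGACG core at 121 bases before the start. Slc25a36, a pyrimidine nucleotide carrier, was called in no comparison, and its log2 fold changes of KO against WT were -0.17 (SE 0.13) in mock and 0.02 (SE 0.13) with IL-4.

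Carriers of other nucleotides and of cofactors included members that were higher in KO. Of 8 measured, 3 rose and none fell in KO against WT in mock, 2 rose with IL-4, 3 fell with IL-4 in KO and 1 fell with IL-4 in WT. The shares called were 37.5%, 25.0%, 37.5% and 12.5%, against 34.5%, 18.8%, 30.3% and 26.7% of all genes. Slc25a51 stood at 56.9, 56.4 and 52.3 CPM in the KO IL-4 libraries, 54.9, 54.6 and 52.9 in KO mock, 43.8, 43.3 and 45.1 in WT IL-4 and 44.7, 46.5 and 45.5 in WT mock. Every KO library was above every WT library, and IL-4 and mock libraries of a genotype overlapped. Slc25a51, the carrier that brings NAD+ into mitochondria, accordingly rose in KO against WT by 0.25 (adjusted p = 0.0080, SE 0.06) in mock and 0.33 (adjusted p = 0.0024, SE 0.06) with IL-4, calls that held in each setting. Slc25a17 stood at 34.5, 33.4 and 34.3 CPM in the KO IL-4 libraries, 42.6, 39.9 and 36.9 in KO mock, 27.3, 29.3 and 30.2 in WT IL-4 and 30.5, 31.6 and 33.5 in WT mock. The KO mock libraries were highest and the WT IL-4 libraries lowest. Slc25a17, the peroxisomal carrier of coenzyme A and other cofactors, rose in KO by 0.32 (adjusted p = 0.0055, SE 0.08) in mock and 0.24 (adjusted p = 0.043, SE 0.08) with IL-4, and fell with IL-4 in KO, at a log2 fold change of -0.22 (adjusted p = 0.039, SE 0.08). Its rise with IL-4 present was lost without any 1 of the 6 libraries compared except WT IL-4 library 3, and without KO mock library 2 (adjusted p = 0.058 to 0.14). Leaving out both KO libraries numbered 2 lost that rise as well. The fall of Slc25a17 in KO was lost without any 1 of the 6 libraries compared except KO mock library 3 (adjusted p = 0.082 to 0.14), with library size alone (0.10), with the length correction (0.098) and with the block and that correction (0.080). It was lost too without both KO libraries numbered 2, with or without the block (up to 0.17).

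Slc25a33 stood at 3.91, 5.01 and 4.16 CPM in the KO IL-4 libraries, 7.71, 7.90 and 7.39 in KO mock, 3.04, 5.17 and 2.64 in WT IL-4 and 5.22, 6.24 and 5.30 in WT mock. Slc25a33, a carrier of pyrimidine nucleotides, was highest in KO mock, and WT IL-4 library 2 stood well above the other WT IL-4 libraries. It fell with IL-4, at -0.81 (adjusted p = 0.0059, SE 0.20) in KO, a call made in every setting, and at -0.62 (adjusted p = 0.033, SE 0.20) in WT. The call in WT was lost without WT IL-4 library 1 or 3 (adjusted p = 0.14 and 0.13) and without any WT mock library (0.059 to 0.13), without both KO libraries numbered 2 (0.053) and with only the 6 libraries compared (0.078). Slc25a26 stood at 7.76, 7.78 and 7.89 CPM in the KO IL-4 libraries, 10.3, 9.20 and 9.56 in KO mock, 7.06, 8.47 and 8.05 in WT IL-4 and 8.33, 8.85 and 7.72 in WT mock. In KO the IL-4 libraries of Slc25a26, the S-adenosylmethionine carrier, lay below the mock libraries, and it fell with IL-4 in KO, at a log2 fold change of -0.31 (adjusted p = 0.031, SE 0.10). That call was lost without any 1 of the 6 KO libraries except KO mock library 2 (adjusted p = 0.061 to 0.11) and with library size alone (0.059). It did not hold without both KO libraries numbered 2, with or without the block. Slc25a16, Slc25a36 and Slc25a42 were called in no comparison.

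The carriers of di- and tricarboxylates, which move citrate, malate, succinate and oxoglutarate, had mean levels of 21.3 to 77.0 RPKM. Of 3 measured, 1 rose in KO against WT in mock, a share of 33.3% against 34.5% of all genes. None was called in the other comparisons, against 18.8% of all genes for KO against WT with IL-4, 30.3% for IL-4 in KO and 26.7% in WT. Slc25a1 stood at 101, 103 and 104 CPM in the KO IL-4 libraries, 119, 103 and 118 in KO mock, 99.6, 117 and 101 in WT IL-4 and 97.2, 102 and 94.7 in WT mock. KO mock libraries of Slc25a1 lay just above the WT mock libraries. Its rise in KO in mock was 0.21 (adjusted p = 0.048, SE 0.08). The call was lost without KO mock library 1 or 3 or WT mock library 1 or 3 (adjusted p = 0.084 to 0.14), with the length correction (0.31), with library size alone (0.12) and with only the 6 libraries compared (0.054). Slc25a11 stood at 158, 157 and 152 CPM in the KO IL-4 libraries, 178, 168 and 179.9 in KO mock, 147, 173 and 159.5 in WT IL-4 and 162, 167 and 158 in WT mock. The groups of Slc25a11 spanned a narrow range, and its log2 fold changes ran from -0.17 (adjusted p = 0.067) with IL-4 in KO to 0.11 (adjusted p = 0.21) in KO against WT in mock. With the pairing as a block its fall with IL-4 in KO passed the test at -0.17 (adjusted p = 0.033). Its exons share 8.92% of their length with Rnf167 on the opposite strand. Slc25a10, the dicarboxylate carrier, had its largest log2 fold change in KO against WT with IL-4, at -0.23 (adjusted p = 0.051, SE 0.08).

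Among the amino acid carriers, Slc25a44 and Slc25a13 moved in opposite directions in KO. Of 8 measured, 1 rose and 1 fell in KO against WT in mock, and again 1 rose and 1 fell with IL-4, while 1 rose with IL-4 in KO and 2 in WT. These calls were 25.0%, 25.0%, 12.5% and 25.0% of the group, against 34.5%, 18.8%, 30.3% and 26.7% of all genes. Slc25a44 stood at 60.9, 71.1 and 65.9 CPM in the KO IL-4 libraries, 62.6, 68.3 and 60.6 in KO mock, 45.9, 49.4 and 50.9 in WT IL-4 and 46.4, 49.6 and 50.7 in WT mock. All 6 KO libraries were above all 6 WT libraries, and IL-4 made no detectable difference in either genotype. Slc25a44 (ENSMUSG00000050144.13, chromosome 3, 88410498 to 88425139, minus strand), the carrier of branched-chain amino acids, rose in KO against WT by 0.38 (adjusted p = 0.0020, SE 0.08) in mock and 0.44 (adjusted p = 0.0013, SE 0.08) with IL-4, and both calls held in each setting. Slc25a13 stood at 21.5, 23.1 and 24.7 CPM in the KO IL-4 libraries, 18.9, 19.9 and 21.0 in KO mock, 37.2, 32.6 and 33.9 in WT IL-4 and 25.0, 23.4 and 24.9 in WT mock. Slc25a13 (ENSMUSG00000015112.15, chromosome 6, 6041218 to 6217173, minus strand), the aspartate/glutamate carrier citrin of the malate-aspartate shuttle, was highest in WT IL-4, where no library overlapped with another group. It fell in KO against WT, at -0.29 (adjusted p = 0.015, SE 0.08) in mock and -0.58 (adjusted p = 0.00023, SE 0.08) with IL-4, and it rose with IL-4 in WT by 0.50 (adjusted p = 0.00035, SE 0.08). In KO its IL-4 difference was 0.21 (adjusted p = 0.073, SE 0.08), and with the pairing as a block it was 0.21 (adjusted p = 0.036). The call in mock was lost without KO mock library 1 or WT mock library 1 or 3 (adjusted p = 0.074, 0.081 and 0.064) and without both KO libraries numbered 2 (0.076).

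Slc25a22 stood at 47.0, 44.0 and 43.9 CPM in the KO IL-4 libraries, 39.0, 39.3 and 37.7 in KO mock, 46.4, 50.1 and 46.2 in WT IL-4 and 35.5, 37.3 and 38.9 in WT mock. For Slc25a22, a glutamate carrier, IL-4 libraries were above mock libraries in both genotypes, and KO and WT overlapped under each treatment. It rose with IL-4 by 0.22 (adjusted p = 0.028, SE 0.07) in KO and by 0.35 (adjusted p = 0.0014, SE 0.07) in WT. The call in KO was lost without KO IL-4 library 1 or 3 or any KO mock library (adjusted p = 0.051 to 0.090), without both KO libraries numbered 2 (0.080), with the length correction (0.12) and with the block and that correction (0.078), while that in WT held in each setting. The other aspartate/glutamate carrier, Slc25a12, was not called, at 0.20 (adjusted p = 0.057, SE 0.07) with IL-4 in KO, and with the pairing as a block it was 0.20 (adjusted p = 0.029). The glycine carrier Slc25a38, the ornithine carrier Slc25a15, the glutamate carrier Slc25a18 and the basic amino acid carrier Slc25a29 were called in no comparison, and Slc25a18 was rare at 0.0904 to 0.670 CPM.

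Among the carriers of iron and glutathione, 3 members fell with IL-4 in 1 of the genotypes. Of 4 measured, 1 rose in KO against WT in mock and none was called in KO against WT with IL-4. For IL-4 against mock, 2 fell in KO and 1 fell in WT. Of all genes, 34.5%, 18.8%, 30.3% and 26.7% were called in these comparisons in the same order, and a group of 4 is small. Slc25a39 stood at 291, 282 and 272 CPM in the KO IL-4 libraries, 358, 303 and 336 in KO mock, 283, 333 and 287 in WT IL-4 and 253, 269 and 264 in WT mock. Slc25a39 (ENSMUSG00000018677.9, chromosome 11, 102402985 to 102407946, minus strand) was highest in KO mock, and the WT mock libraries were the lowest of the 4 groups. It rose in KO against WT in mock by 0.34 (adjusted p = 0.0035, SE 0.08) and fell with IL-4 in KO, at a log2 fold change of -0.24 (adjusted p = 0.029, SE 0.08), whereas in WT its IL-4 difference was 0.20 (adjusted p = 0.068, SE 0.08). With the pairing as a block the WT difference passed the test in the upward direction, at 0.20 (adjusted p = 0.019). The fall in KO was lost without KO IL-4 library 2 or 3 or KO mock library 1 or 3 (adjusted p = 0.064 to 0.12) and with library size alone (0.061).

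Slc25a28 stood at 14.9, 13.4 and 13.5 CPM in the KO IL-4 libraries, 17.2, 16.7 and 16.2 in KO mock, 15.0, 16.8 and 15.2 in WT IL-4 and 17.5, 16.7 and 17.2 in WT mock. In KO the IL-4 libraries of Slc25a28, the broadly expressed iron carrier mitoferrin-2, lay below the mock libraries, and it fell with IL-4, at -0.26 (adjusted p = 0.027, SE 0.08). That call was lost without KO IL-4 library 2 or 3 or KO mock library 1 or 2 (adjusted p = 0.061 to 0.088), without both KO libraries numbered 2 (0.15) and with library size alone (0.072). Slc25a37 stood at 10.1, 6.24 and 9.73 CPM in the KO IL-4 libraries, 9.77, 12.8 and 12.2 in KO mock, 7.21, 8.42 and 8.17 in WT IL-4 and 12.1, 10.4 and 11.9 in WT mock. Slc25a37, the iron carrier mitoferrin-1 that is best known in red cell precursors, had lower values with IL-4 in both genotypes, with an overlap between the KO groups. It fell with IL-4 in WT, at -0.53 (adjusted p = 0.023, SE 0.16). In KO the difference was -0.42 (adjusted p = 0.059, SE 0.16), and -0.44 (adjusted p = 0.037) with the pairing as a block. The WT call was lost without WT IL-4 library 1 or WT mock library 1 or 3 (adjusted p = 0.10, 0.084 and 0.074). Slc25a40, the close relative of Slc25a39, was called in no comparison.

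Of the 3 carriers related to the uncoupling proteins, 1 rose in KO against WT in mock, a share of 33.3% against 34.5% of all genes. None was called elsewhere, against 18.8% of all genes for KO against WT with IL-4, 30.3% for IL-4 in KO and 26.7% in WT. Slc25a14 stood at 5.18, 5.81 and 5.59 CPM in the KO IL-4 libraries, 6.69, 6.13 and 6.81 in KO mock, 4.24, 5.09 and 4.82 in WT IL-4 and 5.06, 4.68 and 4.95 in WT mock. Slc25a14 rose in KO in mock by 0.42 (adjusted p = 0.011, SE 0.11), with no overlap between the KO and WT libraries. That call was lost with the block and length correction (adjusted p = 0.060). With IL-4 the difference between KO and WT was 0.23 (adjusted p = 0.18, SE 0.11). Slc25a27 and Slc25a30 were called in no comparison, although with the pairing as a block Slc25a27 was lower with IL-4 in WT, at -0.93 (adjusted p = 0.017). It is a rare transcript here, at 0.491 to 1.99 CPM.

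Among the 6 members with another or no settled substrate, 4 rose in KO against WT in mock and 1 rose in KO against WT with IL-4. In the fit without the pairing, none was called for IL-4 against mock in KO and 1 rose with IL-4 in WT. The shares called were thus 66.7%, 16.7%, 0.00% and 16.7%, against 34.5%, 18.8%, 30.3% and 26.7% of all genes. Slc25a46 stood at 46.8, 56.5 and 48.8 CPM in the KO IL-4 libraries, 45.1, 52.7 and 45.9 in KO mock, 37.7, 33.6 and 42.7 in WT IL-4 and 37.6, 37.4 and 40.3 in WT mock. Slc25a46, which acts on the shape of mitochondria from the outer membrane, had no KO library as low as any WT library. It rose in KO against WT by 0.32 (adjusted p = 0.025, SE 0.10) in mock and 0.42 (adjusted p = 0.0094, SE 0.10) with IL-4. The mock call was lost without KO mock library 2 or WT mock library 1 or 2 (adjusted p = 0.11, 0.064 and 0.051) and with library size alone (0.076). The IL-4 call was lost without KO IL-4 library 2 (0.058), and each was lost without both KO libraries numbered 2 (0.072 in mock and 0.055 with IL-4). Slc25a35 stood at 7.01, 6.85 and 6.89 CPM in the KO IL-4 libraries, 7.12, 6.91 and 7.57 in KO mock, 5.96, 6.59 and 7.03 in WT IL-4 and 5.03, 6.43 and 4.71 in WT mock. For Slc25a35 the KO mock libraries lay above the WT mock libraries, of which library 2 stood highest. It rose in KO against WT in mock by 0.42 (adjusted p = 0.018, SE 0.12), a call lost without KO mock library 3 or WT mock library 1 or 3 (adjusted p = 0.058, 0.059 and 0.064). Slc25a45 and Slc25a43 also rose in KO against WT in mock, by 0.25 (adjusted p = 0.014, SE 0.07) and 0.29 (adjusted p = 0.033, SE 0.10), and Slc25a43 rose with IL-4 in WT by 0.30 (adjusted p = 0.036, SE 0.10). The Slc25a45 call was lost with the length correction (adjusted p = 0.060) and with the block and that correction (0.067). With IL-4 in KO, the difference of Slc25a45 was -0.18 (adjusted p = 0.077, SE 0.07) without the pairing. The mock call of Slc25a43 was lost without any 1 of the 6 libraries compared except WT mock library 1 (adjusted p = 0.056 to 0.080), with library size alone (0.082) and with the length correction (0.20). That mock call was also lost without both KO libraries numbered 2 and with the block and length correction. The Slc25a43 call in WT was lost without WT IL-4 library 2 or WT mock library 2 or 3 (adjusted p = 0.082 to 0.15), without both KO libraries numbered 2 (0.050) and with only the 6 libraries compared (0.10). Slc25a47 and Slc25a53 were called in no comparison.

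Whether KO and WT cells responded differently to IL-4 was tested as an interaction, in which the log2 fold change with IL-4 in WT is subtracted from the one in KO. Without the pairing, edgeR's quasi-likelihood test called none of the 38 members at an adjusted p under 0.05, against 0.736% of all genes. At an unadjusted p under 0.05 there were 9 members, all with a lower IL-4 response in KO, against 18.5% of all genes (9.65% higher and 8.85% lower). DESeq2, which gave 31 members an adjusted p, called 3 of them, all lower, against 7.84% of the 9459 genes to which it gave an adjusted p (3.35% higher and 4.49% lower). In the edgeR fit without the pairing, the members' median was -0.11, against 0.04 over all genes. With the pairing of same-numbered libraries as a block, 5 members were called, all with a lower response in KO, against 11.6% of all genes, of which 6.50% were higher and 5.14% lower. Among them were Slc25a5 and Slc25a4, which carry ADP and ATP, Slc25a39, which carries glutathione, and Slc25a3, which carries phosphate. The share of members called, 5 of 38, was near that of all genes.

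In each pair of same-numbered libraries, the log2 ratio of the IL-4 to the mock library for Slc25a5 was 0.20, 0.40 and 0.25 in KO, against 0.87, 0.60 and 0.64 in WT. For Slc25a4 it was -0.43, -0.18 and -0.32 in KO, against 0.06, 0.15 and 0.04 in WT. For Slc25a3 it was 0.02, 0.06 and 0.06 in KO, against 0.20, 0.37 and 0.39 in WT. All 3 KO pairs were thus below all 3 WT pairs for each of these genes, as they were for 11 of the 38 members and 15.5% of all genes. The opposite order was found for 1 member and 16.6% of all genes. The interaction of Slc25a5 was -0.42 (SE 0.10) without the pairing (adjusted p = 0.071) and -0.42 (adjusted p = 0.0099) with it. For Slc25a39 it was -0.44 (SE 0.11) (adjusted p = 0.073) and -0.43 (adjusted p = 0.0069), and for Slc25a4 -0.39 (SE 0.10) (adjusted p = 0.087) and -0.39 (adjusted p = 0.012). For Slc25a3 it was -0.27 (SE 0.09) (adjusted p = 0.14) and -0.27 (adjusted p = 0.039). With the length correction added to the block, the interaction of Slc25a5 shrank to -0.27 (adjusted p = 0.11) and Slc25a39, Slc25a4 and Slc25a3 were still called, among 4 members in all, against 6.80% of all genes (3.03% higher and 3.77% lower). With the block but without both KO libraries numbered 2, 3 members were called, all lower, against 8.17% of all genes (4.02% higher and 4.16% lower), and Slc25a3 lost its call, at -0.30 (adjusted p = 0.073). Over all genes the interaction rose with gene length at a Spearman rho of 0.328. Slc25a25 and Slc25a44, by contrast, had interactions of 0.13 (adjusted p = 0.60, SE 0.12) and 0.05 (adjusted p = 0.83, SE 0.11) without the pairing.

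**Figure D4:**
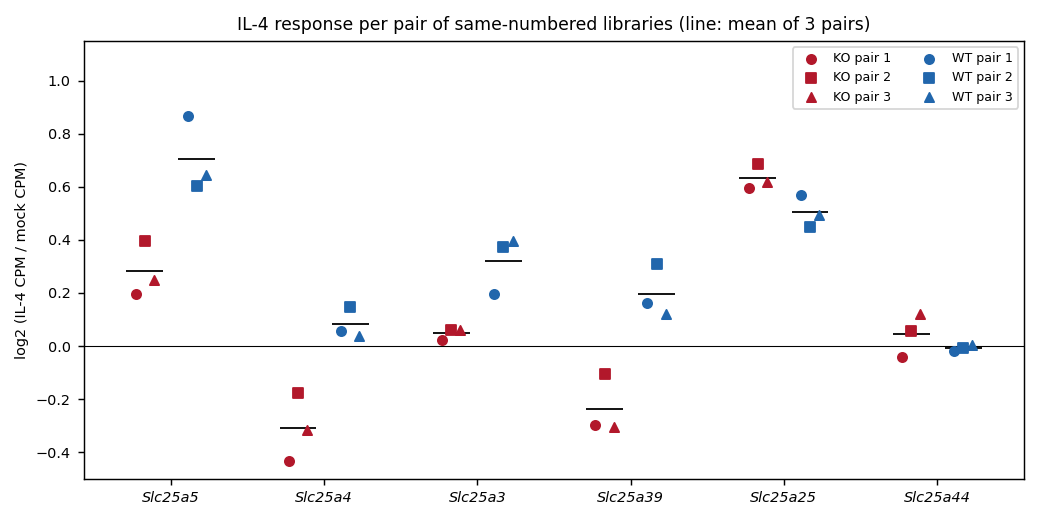
Log2 ratio of the IL-4 to the mock library for each pair of same-numbered libraries in KO (red, left of each gene) and WT (blue, right), with a line at the mean of 3 pairs, for 4 members called in the paired interaction test and for Slc25a25 and Slc25a44. For the first 4 genes all KO pairs lie below all WT pairs, and for Slc25a44 the pairs of both genotypes lie around 0.

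Genes around the family were read from lists of its import machinery, its relatives and other mitochondrial transporters. Ucp2, a carrier of the same family that is abundant in macrophages, stood at 3071 ± 56.6 CPM in KO IL-4, 2513 ± 119.8 in KO mock, 3827 ± 334 in WT IL-4 and 2983 ± 111 in WT mock (mean ± SD, n = 3 each). It fell in KO against WT, at a log2 fold change of -0.25 (adjusted p = 0.016, SE 0.07) in mock and -0.32 (adjusted p = 0.0063, SE 0.07) with IL-4, and rose with IL-4 by 0.29 (adjusted p = 0.0070, SE 0.07) in KO and 0.36 (adjusted p = 0.0016, SE 0.07) in WT. Carriers enter the inner membrane through the TOM pore and the TIM22 translocase. Of 15 measured genes of that route, 4 rose and none fell in KO against WT in mock, none was called in KO against WT with IL-4, 1 rose and 2 fell with IL-4 in KO, and 7 rose and none fell with IL-4 in WT. In that order, 26.7%, 0.00%, 20.0% and 46.7% of the list were called, against 34.5%, 18.8%, 30.3% and 26.7% of all genes. Without both KO libraries numbered 2, none was called with IL-4 in KO (21.5% of all genes) and 5 rose in WT (24.1% of all genes called). Timm22, the translocase channel, rose in KO in mock by 0.50 (SE 0.08) and Tomm40, the outer membrane pore, by 0.31 (SE 0.09). With IL-4, Timm22 changed by -0.25 (SE 0.08) in KO and 0.24 (SE 0.08) in WT. The list's median log2 fold change in KO against WT in mock was 0.15, the same as that of the 38 members.

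Of 22 other mitochondrial transporters, 8 rose and 1 fell in KO against WT in mock, 2 rose and 4 fell with IL-4, none rose and 5 fell with IL-4 in KO, and 5 rose and 4 fell with IL-4 in WT. These calls were 40.9%, 27.3%, 22.7% and 40.9% of the list, against 34.5%, 18.8%, 30.3% and 26.7% of all genes. Mpc1, a subunit of the pyruvate carrier, rose in KO by 0.60 (SE 0.08) in mock and 0.36 (SE 0.07) with IL-4. Mcub, the inhibitory subunit of the calcium uniporter, fell in KO against WT with IL-4, at -0.63 (SE 0.11), and rose with IL-4 in WT by 0.76 (SE 0.11). Tspo, an outer membrane protein, was the 1 gene of this list with a called interaction without the pairing, at -0.51 (adjusted p = 0.038, SE 0.10). Of all genes 0.736% had a called interaction. Without both KO libraries numbered 2, no gene of the list and none of all genes had one. Of 12 genes of iron-sulfur cluster and heme synthesis, which use the iron that mitoferrins carry, 5 rose and none fell in KO against WT in mock, 1 rose with IL-4, 1 rose and 6 fell with IL-4 in KO, and 2 rose and 2 fell with IL-4 in WT. The shares called were 41.7%, 8.33%, 58.3% and 33.3%, against the same 34.5%, 18.8%, 30.3% and 26.7% of all genes. Glrx5 rose in KO in mock by 0.67 (SE 0.10) and fell with IL-4 in KO, at -0.51 (SE 0.10), while Alas1, the first enzyme of heme synthesis, rose with IL-4 by 0.68 (SE 0.07) in KO and 0.71 (SE 0.07) in WT. Without both KO libraries numbered 2, 1 gene of this list rose and 3 fell with IL-4 in KO (21.5% of all genes called). Of the other transporters, 2 then rose and 1 fell in KO against WT with IL-4 (11.7% of all genes called).

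The authors' deposited table gives their own fold changes and adjusted p-values for the 4 comparisons of 2 groups. At an adjusted p under 0.05 the authors' deposited table held 13 higher and 3 lower members for KO against WT in mock, 4 higher and 4 lower ones with IL-4, 3 and 8 for IL-4 against mock in KO, and 7 and 3 in WT. Over all genes the authors' deposited table held calls for 35.8%, 20.8%, 31.4% and 28.0% in the same order. Of the calls made here, 16 of 17, 7 of 7, 10 of 10 and 9 of 9 were also calls of the authors' deposited table.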

How the data were processed

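RNA-seq read counts per gene were used from 12 libraries of mouse macrophages in 4 groups of 3, taken from the sample titles. The authors deposited whole-number counts, not normalized, with gene lengths in bases, and their own log2 fold changes and adjusted p-values for 4 comparisons, per the file headers. The submitters' processing notes name mm10 as the build and list STAR 2.7.2b, Subread 1.6.5 with featureCounts, edgeR and bcl2fastq. Strandedness, the treatment of reads with several matches and the authors' filter are not given in the sources.

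Counts of 13715 genes were tested with the quasi-likelihood test of edgeR 4.0.16 in R 4.3.3, scaled by TMM factors of 0.942 to 1.02. The filter filterByExpr took out 0 genes, so all 38 members entered the fit. A single fit with 4 group coefficients and 8 residual degrees of freedom gave every contrast. P-values were two-sided and adjusted by Benjamini-Hochberg over all genes, and the threshold was 0.05. The standard error is the absolute log2 fold change over the square root of the F statistic. CPM used TMM-scaled library sizes. The scripts were tested on simulated data with known changes.

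Alternatives were median-of-ratios factors, library size alone, other filters, DESeq2 1.42.0, a loess correction for gene length, each library left out, both KO libraries numbered 2 left out, the 6 libraries compared alone, and a replicate block. The block without both KO libraries numbered 2 was added after seeing the data. The pairing was checked on deviations from group means over 8126 genes with a mean log2 CPM of at least 3. IL-4 and mock libraries of the same number correlated at 0.551, 0.579 and 0.518 in KO and 0.229, 0.491 and 0.406 in WT, and titles number the samples within a genotype, so numbers were taken to pair them there.

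The 38 members, the gene lists and the tests were chosen with earlier results of these data known. Values of 1 member and of 1 other transporter gene are not reported here, though the counts include them. Values per library are given for up to 8 members per contrast with the largest absolute log2 fold change among those called with a mean of at least 1 CPM, and for the 5 members with the highest mean RPKM. Genes of other lists are given as up to 4 with the smallest adjusted p in a contrast. Sequences are from RefSeq, build GRCm38.p6, and exon positions from GENCODE M21.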

Additional observations from a re-analysis of the deposited data

Results flagged for a closer look

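For 5 members, of which 4 are named here, the response to IL-4 differed between the genotypes when same-numbered libraries were paired, by edgeR's quasi-likelihood test of the interaction with the replicate block. Slc25a5, an ADP/ATP carrier, had an interaction of -0.42 (adjusted p = 0.0099), with a rise in both genotypes that was smaller in KO. Slc25a39, a glutathione carrier, had -0.43 (adjusted p = 0.0069), with a negative mean log2 ratio in KO and a positive one in WT. Slc25a4, the other ADP/ATP carrier, had -0.39 (adjusted p = 0.012), with the same split of signs. Without the pairing, neither change with IL-4 in WT was called by this test. It was 0.08 (adjusted p = 0.45) for Slc25a4 and 0.20 (adjusted p = 0.068) for Slc25a39, of which that of Slc25a39 passed with the pairing. Slc25a3, the phosphate carrier, had -0.27 (adjusted p = 0.039). With the length correction added to the block, the interaction of Slc25a5 shrank to -0.27 (adjusted p = 0.11) and was not called, while Slc25a39, Slc25a4 and Slc25a3 stayed called. With the pairing 11.6% of all genes were called. Without the pairing, edgeR called none of the 5 on all 12 libraries, and Slc25a5 when WT mock library 2 was left out (adjusted p = 0.043), while DESeq2 called Slc25a5, Slc25a39 and Slc25a4 (adjusted p = 0.0053, 0.0064 and 0.013). Without both KO libraries numbered 2, and without the pairing, the interaction of Slc25a5 was -0.50 (adjusted p = 0.11) and that of Slc25a39 was -0.52 (adjusted p = 0.10). With the pairing and without these libraries, the interaction was -0.50 (adjusted p = 0.014) for Slc25a5, -0.52 (adjusted p = 0.0085) for Slc25a39, -0.47 (adjusted p = 0.014) for Slc25a4 and -0.30 (adjusted p = 0.073) for Slc25a3.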

How the results depend on the processing

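No called value of a member changed its direction in any of the alternatives tried. Between KO and WT in mock, the counts of 14 higher and 3 lower members stayed within 1.5 times under each alternative. The cause of the other movements was not tested. For KO against WT with IL-4, the 4 higher members became 2 without both KO libraries numbered 2, and 2 to 4 when single libraries were left out. For IL-4 against mock in KO, the 3 higher members became 5 with library size alone, 5 with the replicate block and 1 without both KO libraries numbered 2. The 7 lower ones became 2, 11 and 3 in the same settings, and 2 to 8 when single libraries were left out. For IL-4 against mock in WT, the 3 lower members became 1 to 3 when single libraries were left out. For the interaction, 0 lower members became 3 with DESeq2, 5 with the replicate block, 4 with the block and length correction, and 0 to 1 when single libraries were left out. With the block and without both KO libraries numbered 2, a setting chosen after seeing the data, there were 3 lower members in the IL-4 comparison in KO and 3 in the interaction. The replicate block moved no other count by over 1.5 times. KO and WT libraries of the same number did not deviate together (correlations of -0.319 to 0.175), so the numbers do not pair the genotypes, and the block gave 14 higher and 3 lower members in mock and 3 and 3 with IL-4. Of the 17 members called in mock 16 were shared, since the block did not call Slc25a1 (adjusted p = 0.065) and called Slc25a33 (0.036), and with IL-4 it did not call Slc25a17 (0.072). With 30651627 to 39136822 counts per library, members under 1 CPM on average, Slc25a18 and Slc25a47, had standard errors of 0.45 to 0.57 in the comparisons of 2 groups.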
